A study of Danio rerio with 3 samples.

Results

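The genes examined encode the shared and defining subunits of the mTOR kinase complexes (mtor, mlst8, rptor and rictora), the Tsc proteins and the GTPase Rheb that control complex 1 (tsc1a, tsc1b, tsc2 and rheb), and a pair of proteins that complex 1 phosphorylates (eif4ebp1 and eif4ebp2). These 10 genes were chosen by name, and each was found once among the 32520 genes of the count table. RNA of whole zebrafish embryos of the Tubingen strain at 36 hpf (hours post fertilization) was sequenced in 3 libraries, 1 for each genotype at the histone methyltransferase gene setd2: wild-type (labelled WT), setd2+/- (labelled HE) and setd2-/- (labelled HO). The study describes the embryos as littermates and uses the frame-shift line E3fs1 as its default model, whereas the labels do not name the line or the number of embryos in a library. Each genotype has 1 library, so differences could not be set against a spread between replicates, and p-values are not given.

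mTOR is a protein kinase that couples nutrients and growth factors to protein synthesis. It works in complex 1, which is defined by Raptor, and in complex 2, which is defined by Rictor, and mLST8 is a subunit of both. Tsc1 and Tsc2 form a complex that turns off the small GTPase Rheb, which activates complex 1 at the lysosome. Active complex 1 phosphorylates the eIF4E-binding proteins, which otherwise hold the cap-binding factor eIF4E, and the S6 kinases. Most of this control acts on proteins, by phosphorylation and by location in the cell, and RNA counts measure neither.

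The counts summed to 12760683 to 14160325 per library. Scaling was by TMM in edgeR, and levels are given as CPM, a gene's count relative to this scaled total. A mean count of 10 or more was required for a comparison, which 18966 genes had, and all of the 10 genes were among them. Intervals of 95% cover counting error only and compare libraries, not genotypes. In the following, WT, HE and HO name the libraries as labelled. The gene setd2 itself had 1348 counts in the library labelled WT, 1380 in that labelled HE and 2087 in that labelled HO, so its mRNA was highest in the library labelled HO, and every direction given here rests on the labels. All 12 markers of embryonic tissues that were looked up had counts in each library, from 20 to 147070. Their summed FPKM was 11431 in WT, 12343 in HE and 12775 in HO. The blood gene hbbe1.1 had 3218, 9459 and 10139 counts in WT, HE and HO, and the lens gene cryba4 had 140, 480 and 639. Both were lowest in WT. Other markers differed in HE. The muscle gene actc1b was lowest there, with 112526, 88089 and 108503 counts in WT, HE and HO. The hatching gland gene ctslb was highest there, with 1041, 1684 and 773 counts for ENSDARG00000074306 and 1054, 1329 and 1158 for ENSDARG00000039173. The part of such differences in the results below was not tested. In RNA of whole embryos, fewer cells of a type and less RNA per cell cannot be told apart.

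Per unit of gene length, eif4ebp2 and eif4ebp1 stood well above the rest of the 10 genes, which lay closer together. The order of the 10 genes was the same in each library, though some neighbours in it did not differ beyond counting error. Levels between genes were compared with the deposited FPKM values, which relate a count to the exonic length of the gene and to the library total. The eIF4E-binding protein gene eif4ebp2 was the highest, with an FPKM of 93.06 in WT, 99.55 in HE and 99.50 in HO. Its paralogue eif4ebp1 followed with 61.83, 63.93 and 59.08 FPKM. Both lay far above the kinase that acts on their proteins, since mtor had 8.68 FPKM in WT, 8.13 in HE and 9.70 in HO. The GTPase gene rheb had 9.82, 14.80 and 10.86 FPKM in the same order.

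The Tsc genes and the complex subunits were lower. The gene tsc1b had 7.45 FPKM in WT, 7.06 in HE and 7.32 in HO, and tsc2 had 4.82, 5.50 and 5.11. The subunit gene mlst8 had 4.48, 4.49 and 4.90 FPKM, and tsc1a had 4.35, 4.41 and 4.68. The defining subunits were the lowest of the 10, with 3.35, 3.12 and 2.90 FPKM for rptor and 1.99, 1.99 and 2.30 for rictora. The distance between the highest and the lowest gene was 46.8-fold in WT, 50.03-fold in HE and 43.3-fold in HO.

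Some neighbours in this order did not differ beyond counting error. In WT, rheb exceeded mtor by a ratio of 1.13 (95% interval 0.93 to 1.36) and in HO by 1.12 (0.94 to 1.33), whereas in HE the ratio was 1.82 (1.54 to 2.14). The genes mlst8 and tsc1a overlapped in each library. The genes tsc2 and mlst8 overlapped in WT and HO, and in HE tsc2 was higher by a ratio of 1.22 (1.05 to 1.44). All other neighbours were separated in each library. Against all tested genes, eif4ebp2 stood at the 96.7th percentile of FPKM in WT, mtor at the 64.0th and rictora at the 26.2nd.

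**Figure D1:**
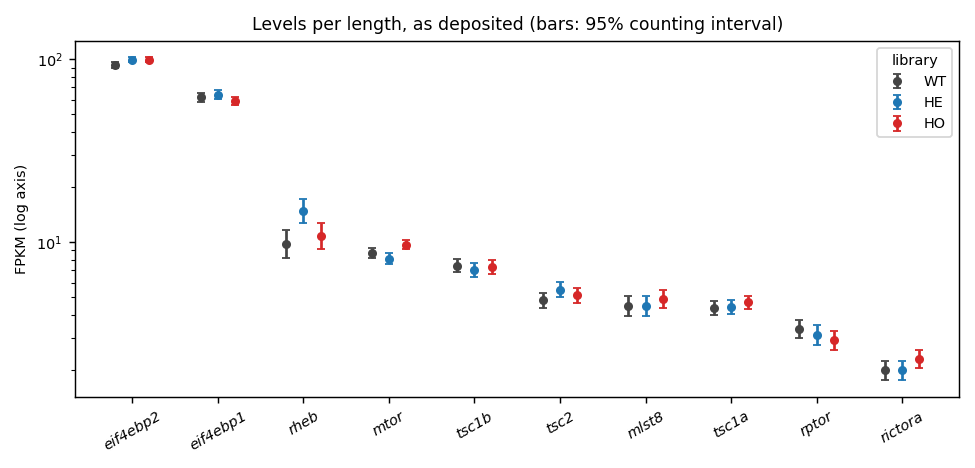
Deposited FPKM values (log axis) of the 10 genes in the libraries labelled WT, HE and HO, with bars for the 95% counting interval. The genes eif4ebp2 and eif4ebp1 lie at 59.08 FPKM or more in each library, and rictora lies lowest, between 1.99 and 2.30 FPKM.

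Between the libraries labelled HO and WT, the gene for the kinase was slightly higher. The gene mtor (ENSDARG00000053196) had 1008 counts in WT, 903 in HE and 1195 in HO. These are 75.0, 71.6 and 84.0 CPM, so HO was the highest library and HE the lowest. The log2 ratio was 0.16 for HO against WT (95% counting interval 0.042 to 0.29) and 0.23 for HO against HE (0.11 to 0.36). Between HE and WT it was −0.07, with an interval of −0.20 to 0.063 that includes 0.

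The longest tested genes had medians in the same direction as this difference in mtor. The part of gene length in the difference was not tested. The exonic length of mtor is 8700 bases, and the 949 longest tested genes, of 7610 bases or more, had a median log2 ratio of 0.18 for HO against HE and of 0.057 for HO against WT. With the median of genes of similar length subtracted, the value of mtor was 0.055 for HO against HE and 0.11 for HO against WT, and both intervals then included 0. This bin reaches to 98586 bases and mtor lies near its short end, and the next bin, of 6139 to 7605 bases, had medians of 0.080 and 0.032. In the RefSeq annotation of another assembly, mtor overlaps angptl7, an angiopoietin-like gene, with 231, 238 and 294 counts in WT, HE and HO and a log2 ratio of 0.26 (0.013 to 0.52) for HO against WT. The strand setting of the counts is unknown, so reads of overlapping genes could not be told apart.

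The genes of both defining subunits stayed within counting error, with rptor lowest and rictora highest in HO. The gene rptor encodes Raptor, which brings substrates to complex 1, and had 298 counts in WT, 266 in HE and 274 in HO. At 22.2, 21.1 and 19.3 CPM it was lowest in HO, with a log2 ratio of −0.20 for HO against WT whose interval (−0.44 to 0.039) includes 0. The gene rictora, 1 of 2 zebrafish genes for Rictor, had 266, 255 and 327 counts, or 19.8, 20.2 and 23.0 CPM. Its log2 ratio of 0.21 for HO against WT (−0.022 to 0.46) also lay within counting error, as did that of 0.18 (−0.055 to 0.43) for HO against HE. With the median of genes of similar length subtracted, these values of rictora were 0.16 and 0.0092. Those of rptor were then −0.23 for HO against WT and −0.21 for HO against HE. The shared subunit gene mlst8 had 248, 238 and 288 counts, with a log2 ratio of 0.13 (−0.12 to 0.38) for HO against WT. In the same annotation mlst8 overlaps bricd5, with 37, 52 and 27 counts, and meiob, and rptor overlaps 3 non-coding genes.

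Ratios between genes within a library do not depend on how the libraries are scaled. The FPKM of rptor relative to mtor was 0.386 in WT, 0.384 in HE and 0.299 in HO. The log2 of this ratio was lower by 0.37 in HO than in WT, as a difference of −0.37 with a counting interval of −0.63 to −0.10, and it differed by −0.36 (−0.63 to −0.088) between HO and HE. Between HE and WT the difference was −0.0052 (−0.28 to 0.27). Against rictora, without its paralogue rictorb, the corresponding difference of rptor was −0.42 (−0.75 to −0.087) for HO against WT. The ratio of mlst8 to mtor differed by −0.030 (−0.30 to 0.24) and that of rictora to mtor by 0.052 (−0.21 to 0.32), so that these intervals include 0. With the medians of genes of similar length subtracted, the difference of rptor to mtor was −0.34 (−0.61 to −0.076) for HO against WT, still beyond counting error, and −0.27 (−0.54 to 0.0077) for HO against HE, no longer beyond it. That of rptor to rictora was then −0.39 (−0.73 to −0.061) for HO against WT. This step was added for all pairs after the values were seen. The pairs in this and the later paragraphs on ratios are partners in the pathway, and their intervals were added after the values were seen. Over all pairs and comparisons, 13 of 42 differences lay beyond counting error. The pairs share genes and libraries, and no share over other gene pairs was made to set beside this.

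The second Rictor gene, rictorb, had nearly the same counts as rictora, with 280 in WT, 273 in HE and 319 in HO. The share of rictora in the counts of both was 48.7% in WT (exact interval 44.5 to 53.0), 48.3% in HE (44.0 to 52.7) and 50.6% in HO (46.7 to 54.5). The intervals overlapped in each pair of libraries. Per length, rictora held 42.5%, 42.1% and 44.4% of the summed FPKM. The FPKM of rptor relative to this sum was 0.716 in WT, 0.660 in HE and 0.560 in HO, without a counting interval. The difference of rptor to rictorb alone was not computed.

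**Figure D2:**
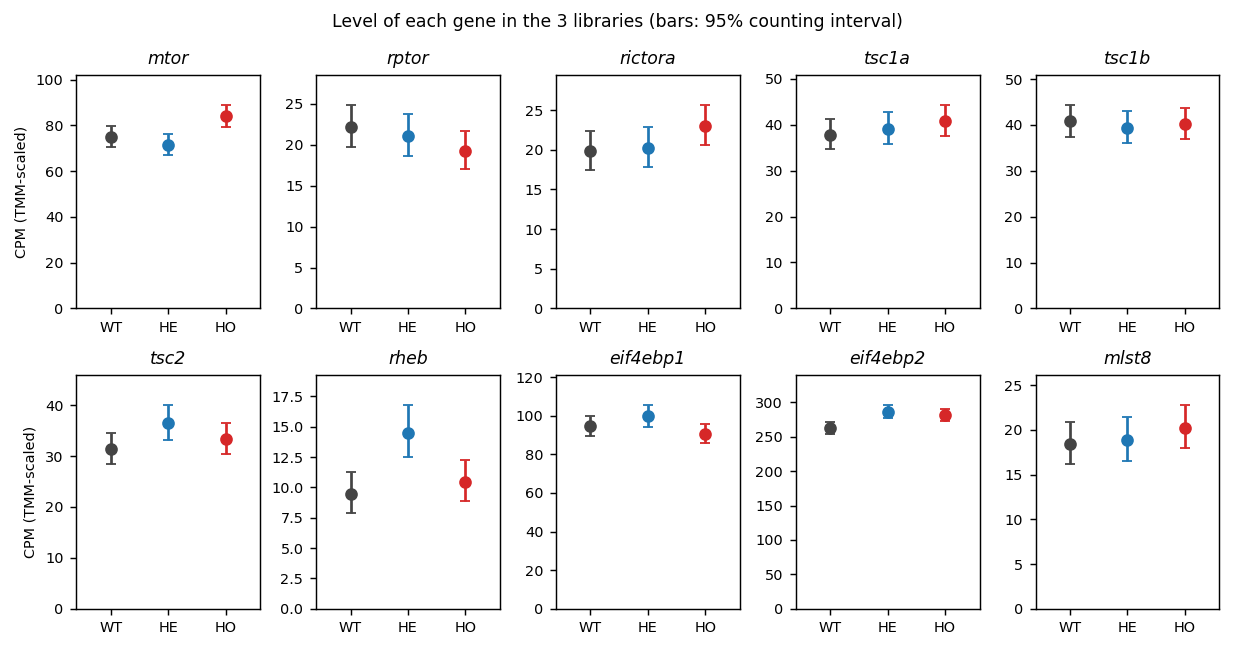
CPM of each of the 10 genes (vertical axes from 0) in the libraries labelled WT, HE and HO, with bars for the 95% counting interval. The gene rheb stands apart in HE at 14.5 CPM against 9.45 in WT, and mtor is highest in HO at 84.0 CPM.

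Among the negative regulators, tsc2 was highest in the library labelled HE. The gene tsc2 encodes tuberin, the subunit that acts on Rheb, and had 421 counts in WT, 460 in HE and 474 in HO. The TMM-scaled levels were 31.3, 36.5 and 33.3 CPM. The log2 ratio of HE against WT was 0.22 (0.025 to 0.41), and those of HO against WT (0.089, −0.10 to 0.28) and HO against HE (−0.13, −0.32 to 0.059) had intervals that include 0. With scaling by total counts, the ratio of HE against WT was 0.19 and its interval reached 0.

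The hamartin genes tsc1a and tsc1b, whose product stabilises tuberin, had no ratio beyond counting error. The gene tsc1a had 508, 493 and 580 counts in WT, HE and HO, which are 37.8, 39.1 and 40.8 CPM. The gene tsc1b had 548, 497 and 572 counts, which are 40.8, 39.4 and 40.2 CPM, the narrowest range of the 10 genes at 0.050 on the log2 scale. The share of tsc1a in the counts of both was 48.1% in WT (45.1 to 51.2), 49.8% in HE (46.6 to 53.0) and 50.3% in HO (47.4 to 53.3). Per length, tsc1b was the higher by a ratio of 1.71 in WT, 1.60 in HE and 1.56 in HO. Together the FPKM of both exceeded that of tsc2 by a ratio of 2.45 in WT, 2.09 in HE and 2.35 in HO. The ratio of tsc1b to tsc2 was lower in HE than in WT by a log2 difference of −0.27 (−0.53 to −0.0098), whereas that of tsc1a to tsc2 differed by −0.17 with an interval (−0.43 to 0.090) that includes 0.

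The largest difference among the 10 genes was that of rheb, the direct activator of complex 1, in the library labelled HE. The gene rheb (ENSDARG00000090213) had 127 counts in WT, 183 in HE and 149 in HO, the lowest counts of the 10. At 9.45 CPM in WT, 14.5 in HE and 10.5 in HO, HE stood above both others. The log2 ratio was 0.61 (0.28 to 0.96) for HE against WT and −0.46 (−0.79 to −0.15) for HO against HE, while that of HO against WT was 0.15 (−0.20 to 0.50). It was the only one of the 10 genes at 0.5 or more in HE against WT, where 5.36% of tested genes were, and 0 of the 10 were at −0.5 or below, where 8.25% were. In HO against WT, 0 of the 10 were past 0.5 in either direction, as were 5.09% of tested genes above and 6.76% below, and in HO against HE 0 of the 10 were, as were 7.65% above and 6.72% below. Large ratios were less frequent among the 12017 genes with a mean count of 100 or more, which include all of the 10. Of these, 1.52% were at 0.5 or more and 2.35% at −0.5 or below in HE against WT, 1.17% and 1.71% in HO against WT, and 2.42% and 2.23% in HO against HE. With the length trend removed, the value of rheb was 0.56 for HE against WT and −0.33 for HO against HE.

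The related gene rhebl1 was nearly level between HE and WT. It had 1254 counts in WT, 1193 in HE and 1213 in HO. The share of rheb in the counts of both was 9.20% in WT (7.72 to 10.8), 13.3% in HE (11.5 to 15.2) and 10.9% in HO (9.33 to 12.7). The log2 odds of this share differed by 0.60 (0.25 to 0.94) between HE and WT. The gene rhebl1 was lower in HO than in WT, with a log2 ratio of −0.13 (−0.24 to −0.015). Relative to tsc2, rheb was higher in HE than in WT by a log2 difference of 0.40 (0.021 to 0.78), which with the length trend removed was 0.31 (−0.067 to 0.69) and no longer beyond counting error. The summed FPKM of rheb and rhebl1 relative to tsc2 was 7.40 in WT, 7.37 in HE and 6.74 in HO.

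Of 12007 other genes with a mean count of 100 or more, those nearest to rheb in their pattern over the 3 libraries were fastkd1, etnppl and ciapin1, at Euclidean distances of 0.018, 0.018 and 0.023 between log2 CPM values centred on each gene's mean. Their log2 ratios of HE against WT were 0.60, 0.59 and 0.58, which lie near that of rheb because the genes were picked for this. A likeness over 3 libraries is weak, and 36 genes lay within a distance of 0.1.

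**Figure D3:**
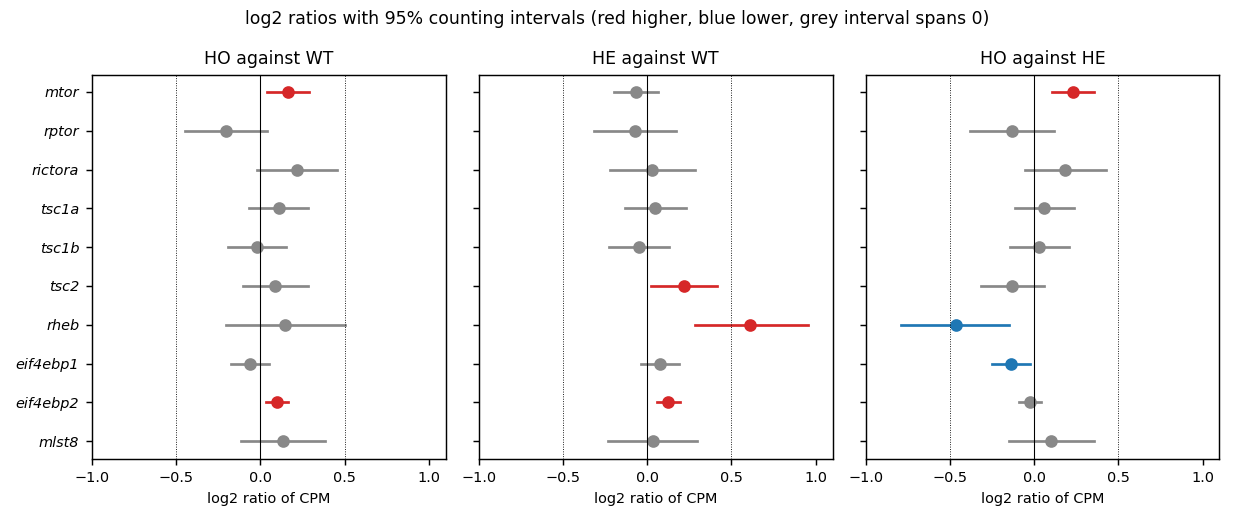
log2 ratios of CPM of the 10 genes for HO against WT, HE against WT and HO against HE, with 95% counting intervals and dotted lines at a log2 ratio of 0.5 in either direction. Intervals that exclude 0 are coloured, and rheb in HE against WT, at 0.61, is the only point past 0.5.

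The eIF4E-binding protein genes, which included the gene with the most counts, differed little in size. The gene eif4ebp2 (ENSDARG00000031819) had 3527 counts in WT, 3609 in HE and 4003 in HO, which are 262, 286 and 281 CPM. It was lowest in WT, and HE and HO overlapped. Its log2 ratio of HE against WT was 0.12 (0.057 to 0.19), and 0.10 (0.035 to 0.17) for HO against WT. Genes of similar length had a median of 0.017 in the first comparison. The gene eif4ebp1 (ENSDARG00000043608) had 1272, 1258 and 1290 counts, which are 94.7, 99.7 and 90.7 CPM. Here HO was the lowest library, with a log2 ratio of −0.14 (−0.25 to −0.023) for HO against HE and of −0.061 (−0.17 to 0.051) for HO against WT. Genes of similar length to eif4ebp1 had a median of −0.075 for HO against HE, and with it subtracted the value was −0.061, with an interval that included 0.

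The share of eif4ebp1 in the counts of both was 26.5% in WT (25.3 to 27.8), 25.8% in HE (24.6 to 27.1) and 24.4% in HO (23.2 to 25.6). The log2 odds differed by −0.16 (−0.29 to −0.033) for HO against WT, and by −0.049 (−0.18 to 0.082) for HE against WT. With the medians of genes of similar length subtracted, the difference for HO against WT was −0.11 (−0.24 to 0.019), so that the interval then included 0. Of the summed FPKM of all 4 eIF4E-binding protein genes in the table, eif4ebp2 held 47.9% in WT, 49.6% in HE and 49.9% in HO, and eif4ebp1 held 31.9%, 31.8% and 29.6%. The gene eif4ebp3l held 17.5%, 16.1% and 17.8%, and eif4ebp3 the rest.

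The genes for the cap-binding protein itself gave a counterpart to these levels. The summed FPKM of eif4ea, eif4eb and eif4e1c was 85.1 in WT, 84.5 in HE and 75.9 in HO. Within this sum eif4ea had 11.19, 13.14 and 12.76 FPKM and eif4eb 14.44, 16.29 and 12.29, so that in HO eif4ea lay above its level in WT and the others below. Their log2 ratios for HO against WT were 0.19 (−0.051 to 0.44) and −0.23 (−0.47 to 0.013). The summed FPKM of the 4 eIF4E-binding protein genes was 194, 201 and 199. The ratio of this sum to that of eif4ea, eif4eb and eif4e1c was 2.28 in WT, 2.38 in HE and 2.62 in HO. It is a ratio of RNA levels, not of proteins, and has no counting interval. The related genes eif4e2 and eif4e3 are not in it. The eIF4E gene with the most counts, eif4e1c, had 1582 counts in WT, 1400 in HE and 1436 in HO, with a log2 ratio of −0.22 (−0.33 to −0.12) for HO against WT. Relative to eif4e1c, eif4ebp2 was higher by a log2 difference of 0.32 (0.20 to 0.44) in HO and of 0.21 (0.086 to 0.33) in HE against WT.

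Counted over the 10 genes, intervals excluded 0 for 2 higher and 0 lower genes in HO against WT, namely mtor and eif4ebp2. Over all tested genes these shares were 11.8% higher and 11.6% lower. In HE against WT, tsc2, rheb and eif4ebp2 were higher and 0 genes lower, against 13.1% and 12.3% of all tested genes. In HO against HE, mtor was higher, and rheb and eif4ebp1 were lower, against 13.8% and 15.2%. Among genes with a mean count of 100 or more, the shares were 15.2% and 13.4% for HO against WT, 17.3% and 13.9% for HE against WT, and 16.8% and 19.1% for HO against HE. With 10 genes such counts lie near the background, and nothing about the 10 as a group is read from them.

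The medians were also small. The median log2 ratio of the 10 genes was 0.10 for HO against WT, with 7 higher and 3 lower, where all tested genes had a median of −0.0044. It was 0.039 for HE against WT, again with 7 higher and 3 lower, and 0.0033 for HO against HE, with 5 in each direction. The corresponding medians of all tested genes were 0.0065 and −0.0092. These comparisons share libraries and are not independent of each other. WT was the lowest library in 6 of the 10 genes and in 31.2% of all tested genes, and 10 genes are too few to set these shares apart. The median distance between a gene's highest and lowest library was 0.17 on the log2 scale for the 10 genes, 0.28 for all tested genes and 0.21 for those with a mean count of 100 or more. None of the 10 genes lies on the chromosome that carries setd2 in the RefSeq annotation.

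**Figure D4:**
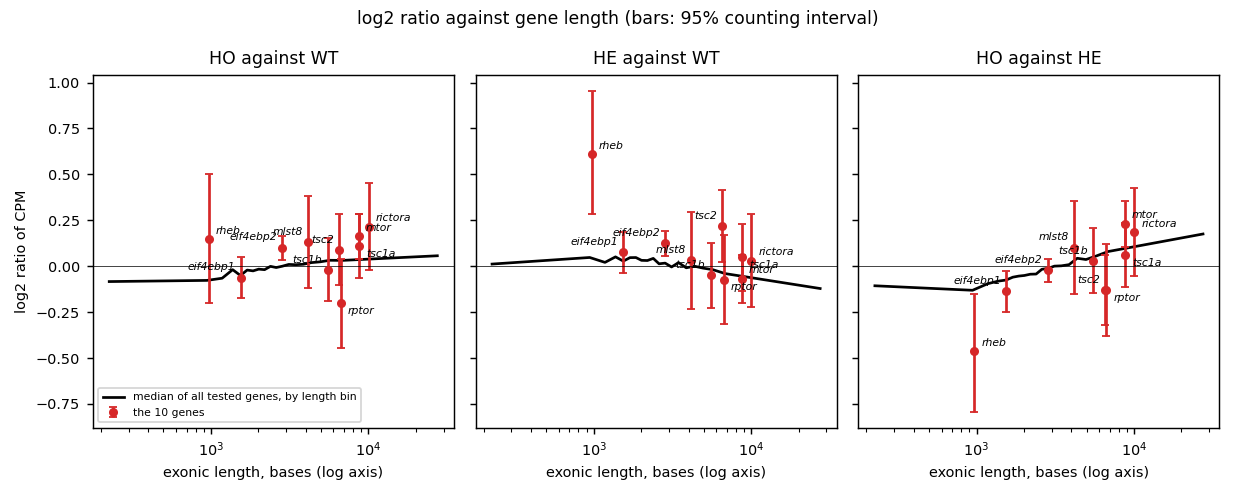
log2 ratios of CPM of the 10 genes against exonic length (log axis), with 95% counting intervals, and the median of all tested genes in 20 bins of length (black line). In HO against HE the line reaches 0.18 in the bin of the longest genes, which holds mtor (0.23) near its short end, whereas rheb in HE against WT lies at 0.61 over a line near 0.048.

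The wider pathway was described with 11 further lists of 150 gene symbols, of which 124 were matched in the table and 123 tested. Between HO and WT, 63 of these genes were higher and 60 lower, with a median log2 ratio of 0.0036, and intervals excluded 0 for 9 higher and 12 lower genes, against 11.8% and 11.6% of all tested genes. The lists were written with earlier results of these data known.

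In the lysosomal amino acid branch, which brings complex 1 to Rheb, the lists held values of both signs in HO against WT. Of 9 genes for the Rag GTPases and the Ragulator scaffold, 4 were higher and 5 lower in HO against WT. All 5 Ragulator genes (lamtor1 to lamtor5) had negative values there, and 1 interval excluded 0, against 11.6% of all tested genes that were lower. This was lamtor2, with 214, 175 and 175 counts in WT, HE and HO and a log2 ratio of −0.37 (−0.67 to −0.077). The interval of rragcb, a Rag GTPase gene with 140, 169 and 187 counts that was named after its values were seen, lay above 0 at 0.33 (0.012 to 0.66). The gene with the most counts, rragca, had a log2 ratio of 0.051 (−0.14 to 0.24). The tested genes of up to 1622 bases, among which the Ragulator genes fall, had bin medians of −0.084 to −0.019 in this comparison. Of 12 genes for the GATOR and KICSTOR complexes and folliculin, 2 intervals lay above 0 and 2 below in HO against WT. Over all tested genes these shares were 11.8% and 11.6%. The products of these genes act on the Rag GTPases, and nprl3 lay farthest from 0. This gene of the inhibitory GATOR1 complex had 237 counts in WT, 313 in HE and 359 in HO. Its log2 ratio was 0.51 (0.28 to 0.76) for HO against WT and 0.49 (0.24 to 0.74) for HE against WT, so both HE and HO lay above WT. The other GATOR1 genes of the list, depdc5 and nprl2, did not share this. They lay at 0.046 (−0.10 to 0.20) and −0.033 (−0.32 to 0.25) for HO against WT, and were named after their values were seen. The GATOR2 and nuclear pore gene sec13, which had the most counts in this list, had a log2 ratio of −0.15 (−0.25 to −0.051) for HO against WT.

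The 8 tested genes of amino acid sensing had a median log2 ratio of 0.13 for HO against WT, with 6 higher and 2 lower. Of the 15 symbols listed, 7 were not matched in the table. Over all 18966 tested genes, 9309 were higher in this comparison. The sensing gene with the most counts was sesn1, a Sestrin that inhibits complex 1 when leucine is low. It had 659, 593 and 752 counts in WT, HE and HO and a log2 ratio of 0.11 (−0.044 to 0.26) for HO against WT. The farthest from 0 among those with a mean count of 100 or more was sesn2, with 123, 140 and 162 counts and a log2 ratio of 0.31 (−0.032 to 0.67). The genes with intervals above 0 in this list were sesn3 (0.30, 0.14 to 0.46) and castor2 (0.24, 0.074 to 0.40), against 11.8% of all tested genes. The paralogue castor1, with 61, 44 and 50 counts, lay at −0.36 (−0.94 to 0.19). The genes sesn3, castor2 and castor1 were named after their values were seen. Among the other complex subunits and assembly factors, tti1, which helps to assemble kinases of this family, had 229, 193 and 188 counts and a log2 ratio of −0.36 (−0.65 to −0.082) for HO against WT. The complex 1 inhibitor gene akt1s1 had 781, 837 and 910 counts, with a log2 ratio of 0.14 (−0.00075 to 0.28) for HO against WT and of 0.19 (0.048 to 0.33) for HE against WT. Of the other Tsc and Rheb genes, tbc1d7, which encodes the third subunit of the Tsc complex, had 131, 159 and 148 counts and was higher in HE than in WT by a log2 ratio of 0.37 (0.028 to 0.72). It was named after its values were seen.

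Downstream of complex 1, the translational inhibitor gene pdcd4b stood apart. It had 421 counts in WT, 487 in HE and 662 in HO, the farthest from 0 of the 8 tested genes of the S6 kinase branch in HO against WT, with a log2 ratio of 0.57 (0.39 to 0.75). A log2 ratio of 0.5 or more was found for 5.09% of tested genes in this comparison. Among genes with a mean count of 100 or more, as pdcd4b has, the share was 1.17%. Its paralogue pdcd4a was higher per length, with 41.28 FPKM in WT against 6.12 for pdcd4b, and did not share this difference. It had 1622, 1618 and 1727 counts and a log2 ratio of 0.0087 (−0.090 to 0.11) for HO against WT. The gene pdcd4a was named after its values were seen. The elongation factor gene eef2b, with the most counts, had a log2 ratio of −0.011 (−0.027 to 0.0051). Of this branch 1 interval lay above 0 and 1 below, against 11.8% and 11.6% of all tested genes. Among the 20 tested genes of cap binding, the helicase gene eif4a1a had the most counts and lay farthest from 0, with 8320, 7464 and 7315 counts in WT, HE and HO and a log2 ratio of −0.27 (−0.31 to −0.22) for HO against WT. Its paralogue eif4a1b, which was higher per length, had a log2 ratio of −0.015 (−0.066 to 0.035).

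Of the 14 genes of AMPK, Lkb1 and Redd1, which restrain complex 1 under low energy or stress, prkag1 lay farthest from 0 in HO against WT among those with a mean count of 100 or more, at 0.25 (0.11 to 0.38), with 830, 769 and 1042 counts. The scaffold gene cab39l, with the most counts, lay at 0.0036 (−0.10 to 0.11). Of the 8 kinase genes that complex 2 acts on, 0 had an interval that excluded 0 in HO against WT, where 11.8% of all tested genes were higher and 11.6% lower. Among them sgk1, with the most counts, had a log2 ratio of −0.046 (−0.21 to 0.11) and sgk2a, the farthest from 0 by the rule, one of 0.29 (−0.041 to 0.62).

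The 11 genes of autophagy and lysosome regulation, which complex 1 restrains, were mostly lower in the library labelled HE than in both others. Over all tested genes, HE was the lowest library in 33.8%. In HE against WT, 9 were lower and 2 higher, with a median log2 ratio of −0.34. Of all 18966 tested genes, 9293 were lower in this comparison. Intervals excluded 0 for 3 lower genes of the list, against 12.3% of all tested genes. In HO against HE, 9 were higher and 2 lower, with a median of 0.21, where 9198 of the 18966 tested genes were higher. There 6 intervals lay above 0 and 1 below, against 13.8% and 15.2% of all tested genes. Both comparisons use the same HE library, so a low value in HE moves both and the second is not separate support. Of the 6 genes, tfe3b, tfe3a and lpin1 had only 23, 48 and 54 counts in HE. The 1 below was tfeb, a lysosomal transcription factor gene that was highest in HE, with 105, 122 and 94 counts and a log2 ratio of −0.54 (−0.95 to −0.15). Among the 7 genes of the list with a mean count of 100 or more, the median of HE against WT was −0.12, and −0.14 where the scaling was also refitted to such genes. The kinase gene ulk1b had 485 counts in WT, 355 in HE and 543 in HO, with a log2 ratio of −0.36 (−0.56 to −0.16) for HE against WT. The gene becn1, which encodes Beclin, had 270, 200 and 282 counts and a log2 ratio of −0.34 (−0.61 to −0.073). All genes of this list named up to here were named after their values were seen. The gene of the list with the most counts, atg13, had 849, 851 and 1058 counts and did not share this pattern, with 0.094 (−0.044 to 0.23) for HE against WT. In HO against WT it was higher by 0.24 (0.10 to 0.37), while atg101, the farthest from 0 there, lay at −0.27 (−0.56 to 0.0031).

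**Figure D5:**
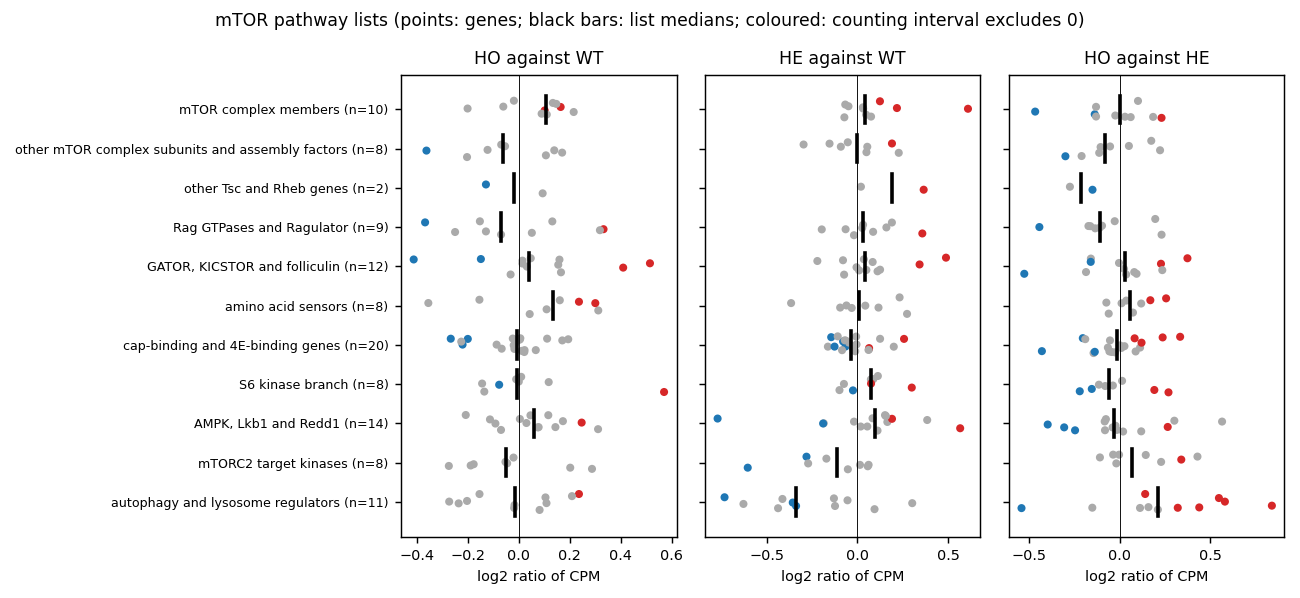
log2 ratios of CPM of the tested genes in the mTOR pathway lists shown, for HO against WT, HE against WT and HO against HE, with the median of each list as a black bar and genes whose 95% counting interval excludes 0 in colour. The list medians lie between −0.07 and 0.13 in HO against WT, and the autophagy list lies lowest in HE against WT with a median of −0.34.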

How the data were processed

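Sequencing libraries of mRNA from whole embryos at 36 hpf were made by the authors, 1 per genotype. The paper's methods name TopHat, the GRCz10 genome and a stranded kit, whereas the submitters' processing notes name HISAT2 2.0.2 and GRCz11 and the labels name other kits. Which of these made the files is not known, and the counting tool is not given in the sources used here. The deposited counts are reads per gene without normalization. The deposited FPKM values equal the count per exonic length and summed counts, with a largest difference of 0.005. Another library's name heads 1 column of a per-library table, which was left out.

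TMM scaling over all genes in edgeR 4.0.16 (R 4.3.3) gave factors of 1.007, 0.989 and 1.004 for WT, HE and HO. A prior count of 2 entered the log2 ratios. A minimum mean count of 10 left 18966 genes. Intervals of 95% for a ratio come from the exact binomial share of both counts, those for a share are Clopper-Pearson, and those for a ratio of ratios are normal intervals of the log odds. They compare libraries, cover counting error only, and no test between genotypes was possible.

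The 10 genes and all lists were chosen with earlier results of these data known. The rule for other named genes was the highest mean count in each list and the gene farthest from 0 in HO against WT among those whose mean count was 100 or more. Exceptions are stated as named after their values were seen, or are partners of the 10 genes. Alternatives were DESeq2 1.42.0 size factors, total counts, a prior count of 0.25, no filter, a minimum mean of 100 counts, FPKM with a pseudocount of 1 or 0.1, and subtraction of the median in 20 bins of exonic length. Chromosomes and overlapping genes were read by symbol from RefSeq's GRCz12tu annotation, which placed all 10 genes, and positions are not given because the assembly differs. Gene names are those of the table, and 7 of the 10 had the same symbol in the reference of gene names, which lists rictora, tsc1a and tsc1b without their suffix. The list of PI3K signalling genes is not reported here. The log2 ratios and their intervals were tested on simulated counts with counting error only. These counts held no other spread between libraries and no length trend. Shares, pair differences and the subtraction of length medians were not tested in this way. Python 3.11.15 with pandas 2.3.3 and scipy 1.17.1 was used for summaries, and matplotlib 3.10.9 for plots.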

Additional observations from a re-analysis of the deposited data

How the results depend on the processing

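Over 8 alternatives, 235 of the 240 values of the 30 log2 ratios of the 10 genes kept their sign. Of the rest, 2 were 0 after the rounding of the FPKM values. Inside the counting interval of the reported value lay 238 of the 240. The alternative without a filter used the same scaling, so its values could not differ from those reported. The FPKM alternatives use the same counts over library totals and nearly repeat that of total counts. The 8 alternatives are therefore not separate checks. With the length trend removed, 3 values changed sign, mtor in HE against WT to 0.054, tsc1a in HO against HE to −0.11 and tsc1b in HO against HE to −0.024, none of which had an interval that excluded 0 before. The values outside the interval came from the same step, that of tsc1a and that of mtor in HO against HE, which became 0.055. The number of genes above counting error then fell from 2 to 1 for HO against WT and from 1 to 0 for HO against HE. The genes below counting error in HO against HE stayed at 2, but were rheb and tsc2 (−0.21) in place of rheb and eif4ebp1. The shares of paralogues on the FPKM scale differ from those of counts because gene lengths differ, for example 36.9% for tsc1a in WT. Of 42 differences between pairs of genes, 13 were beyond counting error, and 5 of these were lost with the length trend removed. That of rheb to rhebl1 in HO against WT was gained at 0.36. This step was chosen for pairs after the data were seen. With total counts, tsc2 in HE against WT was 0.19 and no longer beyond counting error. With a mean count of 100 or more required in place of 10, the genes at 0.5 or more numbered 141 instead of 966 in HO against WT, 183 instead of 1016 in HE against WT and 291 instead of 1451 in HO against HE, and those at −0.5 or below 205 instead of 1283, 282 instead of 1565 and 268 instead of 1275. No paired analysis was possible because each genotype has 1 library. For the same reason no replicate could be left out. The depth limits rheb most, at 127 to 183 counts.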
